A study of Homo sapiens with 4 samples.

Results

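Expression of 56 genes of membrane fusion and granule release was compared between U937-AE and U937-Mt cells on oligonucleotide arrays. The 56 genes were taken by name: 16 syntaxins and VTI1 proteins, 7 VAMP proteins, 3 members of the SNAP-25 family, 3 genes of NSF and its adaptors, 5 syntaxin binding and Sec1/Munc18 genes, 2 BEACH genes, 5 RAB GTPases of granules, 4 RAB27 effectors, 8 subunits of AP-3 and BLOC complexes, and NKG7 with 2 genes of granule contents. They were chosen with earlier results of these data known. All 56 had a probe set, 144 probe sets in all, among 19775 genes and 54675 probe sets on the array.

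U937 cells come from a human leukemia with monocytic features. U937-AE is a clone that carries AML1/ETO, the fusion protein of the 8;21 translocation, with an HA tag and under the zinc-inducible mouse metallothionein (Mt) promoter. U937-Mt cells carry the empty vector and are a bulk population, not a clone. Both lines received 100 µM ZnSO4 for 8 hours, so zinc is shared by both, and the induced protein cannot be told apart from other differences between the clone and the vector line. For each line 3 RNA extractions were mixed into 1 pool, and each pool was put on 2 copies of an Affymetrix array (HG-U133 Plus 2.0). The 2 arrays of a line therefore measure hybridization error only, each line counts as 1 replicate, and no p-value for the difference between the lines is given.

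Fusion of a granule with the plasma membrane is driven by SNARE proteins. Syntaxins and SNAP-25 family proteins on the target membrane pair with a VAMP on the vesicle into a helical bundle that pulls the membranes together. Sec1/Munc18 proteins hold and guide syntaxins, and the ATPase NSF with its adaptors takes spent bundles apart. RAB27 and its effectors bring granules to the cell surface, Munc13 proteins prepare them for fusion, and AP-3 and BLOC complexes sort cargo into lysosome-related organelles. Myeloid cells use this machinery to store and release the contents of their granules.

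Signals are the intensities of the arrays as deposited, on a linear scale. A signal below the 50th percentile of its array, the floor, was counted at the floor, which lay at 119.5 and 129.7 on the U937-AE arrays and at 146.8 and 153.6 on the U937-Mt arrays. A probe set at the floor on every array has a log2 difference of -0.27 by construction. A gene is represented by its brightest probe set, counts as measured when the mean of its log2 signals is at or above the mean of the floors in either pool, and is called lower or higher when each U937-AE array differs from each U937-Mt array (4 comparisons) by over 1.5-fold in that direction. A fold is given with the lowest and the highest of the 4 comparisons in parentheses. Log2 differences are U937-AE minus U937-Mt.

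The gene of the transgene was higher in U937-AE in 1 of its probe sets. Probe set 216831_s_at of RUNX1T1, the gene of ETO, read 1362 and 1299 on U937-AE arrays against 8.60 and 7.60 on U937-Mt arrays, at least 8.86-fold higher. The other 6 probe sets of RUNX1T1 were not called, and 5 of them were at the floor on all arrays. Of 11 monocytic and myeloid markers with a probe set, 7 were above the floor on all 4 arrays in their brightest probe set. CD14 and FCGR1A were at the floor on all 4. A signal at the floor does not show that a transcript is absent. The correlation of log2 signals over the probe sets was 0.935 between the U937-AE copies and 0.919 between the U937-Mt copies, and lay between 0.910 and 0.916 across the lines. Over the measured members the copies differed by a median of 1.09-fold for U937-AE and 1.07-fold for U937-Mt.

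Of the 56 members, 52 were measured. In U937-AE cells 8 of these were lower (15.4%), namely LYST, STXBP2, NKG7, RAB37, UNC13D, STXBP5, SYTL1 and RAB32, and 1 was higher, STX7. The other 43 were not called. Over the 12934 measured genes of the array, 6.12% were called lower and 2.6% higher. Because the members were chosen with earlier results of these data known, setting these shares side by side is no test. The gap between the shares of members and of all genes depended on the rule. It narrowed when 1 array in turn was left out, with 15.4% to 18.9% of the members and 8.62% to 12.0% of all genes lower. The closest were 15.4% and 12.0% when the first array of U937-Mt was dropped. The mean of the 2 arrays gave 17.3% and 13.6%. Quantile normalization gave a wider gap, 15.1% and 4.72%. At 2-fold in all 4 comparisons the shares were 7.69% and 2.03%. The median log2 difference was -0.05 over the measured members and -0.10 over all measured genes. The 8 lower genes were among the syntaxin binding, BEACH, RAB, RAB27 effector and granule genes, and none of the 25 measured syntaxin, VTI1, VAMP and SNAP-25 family genes was lower. At a share of 6.12%, few of 25 genes would be lower, so the lack of a lower gene there does not set these families apart. RAB38, STX1A, SYTL4 and GNLY were not measured.

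**Figure D1:**
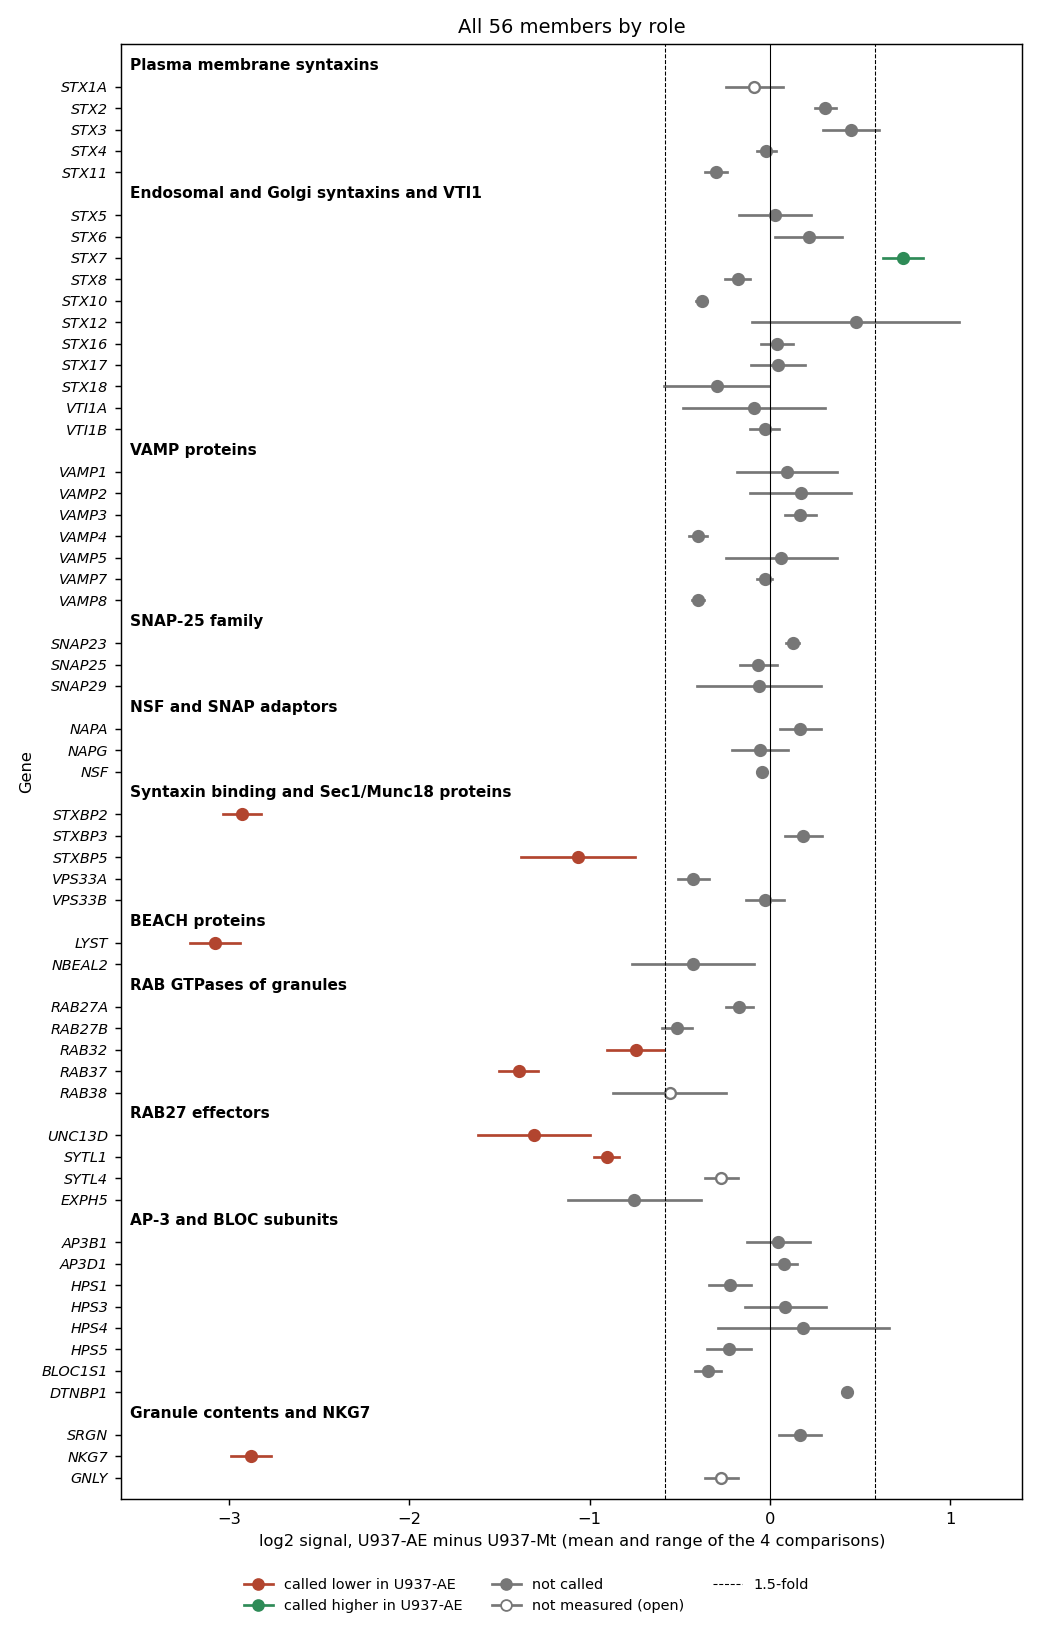
log2 difference of each of the 56 members, U937-AE minus U937-Mt, grouped by role, with points at the mean and lines over the range of the 4 array comparisons of the brightest probe set; open points are genes that were not measured and dashed lines stand at 1.5-fold. LYST, STXBP2 and NKG7 lie near -3, and 36 of the 52 measured members stay within 1.5-fold in all 4 comparisons.

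The split depended on how the arrays were scaled. The hybridization spike-in probe sets gave 1.27-fold more signal in U937-Mt than in U937-AE, and with arrays scaled to them the median log2 difference over all measured genes was 0.24, a shift of 0.34. Then 4 members were lower (7.69%), LYST, STXBP2, NKG7 and RAB37, and 3 were higher, STX7, STX3 and DTNBP1. Of the 12934 measured genes 290 were then lower (2.24%) and 1369 higher. With arrays shifted to the same median log2 signal, 5 members were lower (9.62%) and 1 higher, beside 387 of all measured genes lower (2.99%) and 911 higher. No called member changed direction under either scaling. All differences below are relative to the scaling of the authors.

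LYST was lower in 3 of its 4 probe sets. The gene codes for the BEACH protein whose loss causes Chediak-Higashi syndrome, in which the lysosome-related granules of leukocytes are giant. The signals of 203518_at were 323 and 376 on U937-AE arrays against 3000.4 and 2887 on U937-Mt arrays, 8.45-fold lower (7.67 to 9.30). The lowest of these comparisons, 7.67-fold, was well past the 1.5-fold that the call rule requires. A further 2 probe sets of LYST were lower: 210943_s_at with 316 and 310 on U937-AE arrays against 908 and 899.7 on U937-Mt arrays (2.88-fold), and 1562511_at with 185 and 137 on U937-AE arrays against 319 and 315 on U937-Mt arrays (1.99-fold). The fourth, 215415_s_at, was at the floor on 3 of the 4 arrays and was not called. The folds of the lower LYST probe sets differed from each other.

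NBEAL2, the other BEACH gene, is mutated in gray platelet syndrome, where platelets lack alpha granules. Its signals of 1399 and 1045 on U937-AE arrays lay below the 1488 and 1773 on U937-Mt arrays, with a log2 difference of -0.43 (-0.76 to -0.09), and it was not called.

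Among the genes for syntaxin binding proteins, STXBP2 and STXBP5 were lower. STXBP2 codes for Munc18-2, a Sec1/Munc18 protein that works with syntaxin 11 in cytotoxic cells and whose loss causes familial hemophagocytic lymphohistiocytosis. Its probe set 209367_at had signals of 39.5 and 73.8 on U937-AE arrays, both below the floor, against 979.7 and 918 on U937-Mt arrays, at least 7.62-fold lower. Its second probe set, 1570420_at, was at the floor on all 4 arrays, so the difference in STXBP2 rests on a single probe set. STXBP5 codes for tomosyn, a soluble protein with a SNARE motif that inhibits the pairing of SNAREs. Its brightest probe set, 226794_at, had signals of 218 and 330.4 on U937-AE arrays against 554 and 566 on U937-Mt arrays, 2.09-fold lower (1.68 to 2.60). The U937-AE copies differed by 1.52-fold, the widest gap among the measured members on those arrays, and did not reach the U937-Mt signals. For STXBP5 the other probe sets were split: 243904_at had 286 and 266 on U937-AE arrays against 439 and 408 on U937-Mt arrays (1.53-fold, 3 of 4 comparisons past 1.5-fold), while 235227_at overlapped, with 509 and 300.5 on U937-AE arrays and 429 and 276 on U937-Mt arrays.

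The other Sec1/Munc18 genes were not called. STXBP3, whose product Munc18-3 binds syntaxin 4, had 1919 and 1724 on U937-AE arrays against 1574 and 1626 on U937-Mt arrays, a log2 difference of 0.19. VPS33A and VPS33B code for the Sec1/Munc18 subunits of endosomal tethers, and VPS33B is mutated in a syndrome with defects of platelet alpha granules. VPS33A had a log2 difference of -0.42 (-0.51 to -0.34) and VPS33B one of -0.03 (-0.13 to 0.08).

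**Figure D2:**
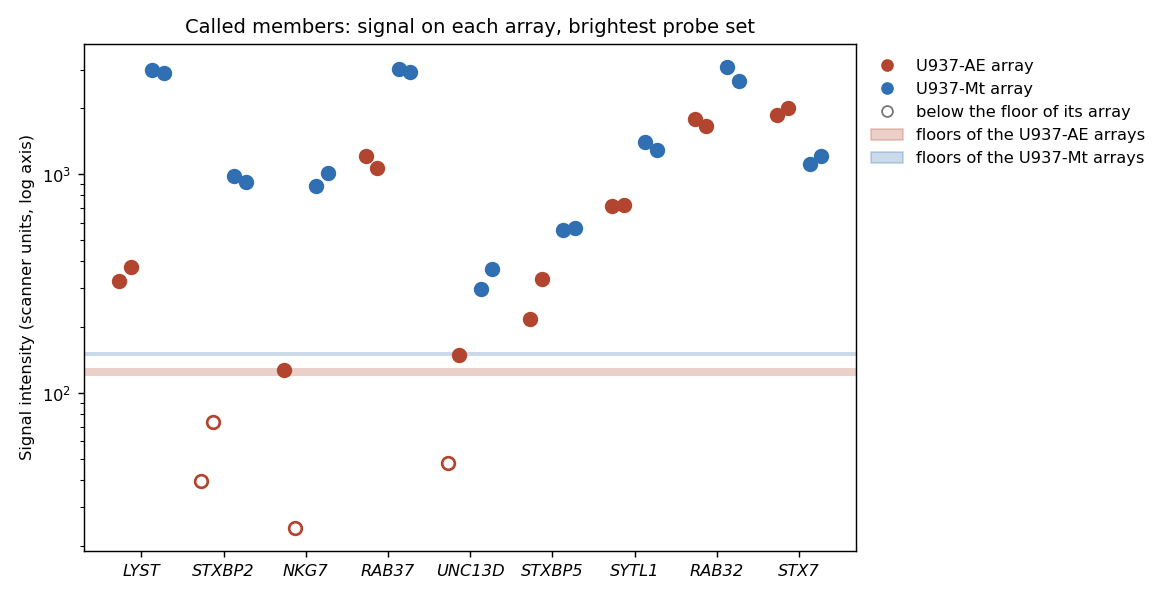
Signal intensity on a log axis of the brightest probe set of each called member on the U937-AE arrays and, to their right, the U937-Mt arrays; open circles lie below the floor of their array and bands give the floors. The call rule requires the arrays of the lines to lie apart in all 9 genes. In STXBP2 both U937-AE arrays are below the floor.

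NKG7 codes for a membrane protein of cytotoxic granules, described in natural killer and T cells. It had signals of 127 and 24.1 on U937-AE arrays, the second of them below the floor, against 883 and 1008 on U937-Mt arrays, 7.35-fold lower (6.81 to 7.93) with that array at its floor. NKG7 has 1 probe set. The summed signal of 13 markers of natural killer and T cells was 2638 and 2250.1 on the U937-AE arrays, against 2404 and 2473 on the U937-Mt arrays. Of these markers 7 were at the floor on all arrays, among them the T cell genes CD3D, CD3E, CD3G and CD247. The 4 above it on all arrays were CD2, KLRD1, KLRF1 and NCAM1, and none was called. KLRD1, KLRF1 and NCAM1 are markers of natural killer cells. NCAM1 had 1116.5 and 897 on U937-AE arrays against 995 and 860.1 on U937-Mt arrays, and KLRF1 had 656 and 628 on U937-AE arrays against 457 and 566 on U937-Mt arrays. GNLY, the gene of the cytotoxic peptide granulysin, had 29.9 and 86.0 on U937-AE arrays against 30.8 and 56 on U937-Mt arrays, and both of its probe sets were at the floor on every array. SRGN codes for serglycin, the proteoglycan core on which granule proteases are packed. It was bright in both lines, with 8952 and 8072 on U937-AE arrays against 7801 and 7349.5 on U937-Mt arrays, a log2 difference of 0.17 (0.05 to 0.28).

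The RAB GTPases of granules were split between lower genes and genes that were not called. RAB37, a RAB of secretory granules, had 1202 and 1064 on U937-AE arrays against 3012 and 2935 on U937-Mt arrays, 2.63-fold lower (2.44 to 2.83), from a single probe set. RAB32, which takes part in the formation of lysosome-related organelles, had 1778 and 1649 on U937-AE arrays against 3084 and 2669.6 on U937-Mt arrays, 1.68-fold lower (1.501 to 1.87). RAB32 was just past the threshold, and its second probe set, 228161_at, had 127 and 164 on U937-AE arrays against 261 and 178 on U937-Mt arrays, and was not called.

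RAB27A and RAB27B dock granules at the plasma membrane, and loss of RAB27A causes Griscelli syndrome. RAB27A had 3800.2 and 3929.8 on U937-AE arrays against 4505 and 4201 on U937-Mt arrays, a log2 difference of -0.17 (-0.25 to -0.10), and its other 4 probe sets gave differences between -0.08 and 0.04. RAB27B had 3703 and 3494 on U937-AE arrays against 5300.0 and 4995 on U937-Mt arrays, a log2 difference of -0.52 (-0.60 to -0.43), and 1 of its 4 comparisons passed 1.5-fold. RAB38, a close relative of RAB32, had 96.4 and 127 on U937-AE arrays, both below the floor, against 218 and 102 on U937-Mt arrays, and was not measured. Without the second U937-Mt array RAB38 was called lower, at -0.81.

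Of the 3 measured RAB27 effectors, UNC13D and SYTL1 were lower and EXPH5 was not called. UNC13D codes for Munc13-4, which prepares granules for fusion and whose loss also causes familial hemophagocytic lymphohistiocytosis. Its probe set 228352_at had 47.5 and 149 on U937-AE arrays, the first below the floor, against 298 and 367 on U937-Mt arrays, 2.48-fold lower (2.00 to 3.07) with that array at its floor. The other 2 UNC13D probe sets, 226678_at and 228350_at, were not measured. SYTL1 codes for the synaptotagmin-like protein Slp1, which binds RAB27 through its N-terminal domain. It had 712 and 719 on U937-AE arrays against 1401 and 1284 on U937-Mt arrays, 1.87-fold lower (1.79 to 1.97), from a single probe set. In both genes the arrays of the lines lay apart, which the call rule requires.

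EXPH5, the gene of the RAB27 effector Slac2-b, fell short of the call in both of its measured probe sets. The brightest, 214734_at, had 157 and 222 on U937-AE arrays against 341 and 289 on U937-Mt arrays, a log2 difference of -0.75 (-1.12 to -0.38), and 213929_at had 173 and 132 on U937-AE arrays against 275 and 234 on U937-Mt arrays, also -0.75 (-1.06 to -0.43). In each the U937-AE arrays lay below the U937-Mt arrays. Leaving out the second array of U937-AE (-1.004) or of U937-Mt (-0.87) made EXPH5 a lower gene. SYTL4, the gene of granuphilin, was at the floor on all arrays in its 3 probe sets.

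Of 9 measured markers of the monocytic and myeloid lineage, 5 were lower (55.6%), against 6.12% of all measured genes. These were LYZ, ITGAM, MPO, TYROBP and LILRB2. The markers were chosen with earlier results of these data known, so setting these shares side by side is no test. The paper names MPO and ITGAM among the targets that AML1/ETO represses. CD14 and FCGR1A were not measured, and CD33 and CD68 had no probe set that named them alone. The summed signal of all 11 such markers with a probe set was 8679 and 8141 on the U937-AE arrays, against 25863 and 24828 on the U937-Mt arrays. MPO, the myeloperoxidase of azurophil granules, had 1898 and 1558 on U937-AE arrays against 16117 and 14591 on U937-Mt arrays, 8.92-fold lower (7.69 to 10.3). MPO made up most of the difference between the sums, since without it the 10 other markers summed to 6781 and 6583 on U937-AE arrays against 9747 and 10237 on U937-Mt arrays. The other 4 measured markers were not called. CSF1R and SPN had log2 differences of -0.78 and -0.79, each with 3 of 4 comparisons past 1.5-fold, and CD4 and FCER1G had -0.10 and -0.13. All 9 measured markers had a negative log2 difference. Of the 11 markers 7 were above the floor on all arrays. Their part in the result for the granule genes was not tested. In RNA of whole cultures, fewer cells of a type and less RNA per cell cannot be told apart.

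STX7 was the member that was higher. Syntaxin 7 is a SNARE of late endosomes and lysosomes. Its brightest probe set, 212631_at, had 1866 and 2007.5 on U937-AE arrays against 1114.5 and 1210.1 on U937-Mt arrays, 1.67-fold higher (1.54 to 1.80). A second, 212632_at, had 1027 and 1235.5 on U937-AE arrays against 708 and 939.9 on U937-Mt arrays, with no overlap but 1 of 4 comparisons past 1.5-fold. The third, 203457_at, overlapped at a log2 difference of -0.11, and the fourth was at the floor on all arrays. With the mean over its probe sets STX7 had a log2 difference of 0.21 and was not called.

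The other endosomal and Golgi syntaxins and both VTI1 genes were not called. STX12, the gene of an early endosomal syntaxin, had 2259 and 1714 on U937-AE arrays against 1834 and 1093 on U937-Mt arrays, so that the lines overlapped, and the U937-Mt copies differed by 1.68-fold, the widest gap among the measured members. Without the first U937-Mt array STX12 was called higher, at 0.85. Its other probe set, 212111_at, had 1624 and 1705 on U937-AE arrays against 1647 and 1608 on U937-Mt arrays, a log2 difference of 0.03. STX16, the gene of a syntaxin of the trans-Golgi network, had probe sets on both sides: 1558249_s_at had 508 and 559 on U937-AE arrays against 347 and 288 on U937-Mt arrays (0.75, 0.55 to 0.96), 221638_s_at had 169.5 and 202 on U937-AE arrays against 230.3 and 307 on U937-Mt arrays (-0.52, -0.86 to -0.19), and the brightest had a log2 difference of 0.04. STX5, STX6, STX8, STX10, STX17, STX18, VTI1A and VTI1B had log2 differences between -0.38 (STX10) and 0.21 (STX6).

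The syntaxins of the plasma membrane were not called. STX11, the partner of Munc18-2 whose loss gives the same syndrome as that of STXBP2, had 184 and 178 on U937-AE arrays against 228 and 217 on U937-Mt arrays, a log2 difference of -0.30 (-0.36 to -0.24). Its signals were close to the floor, and its second probe set was at the floor on all arrays. STX3, the gene of a syntaxin found on granules of several leukocytes, had 2722 and 2506 on U937-AE arrays against 2043 and 1788 on U937-Mt arrays, a log2 difference of 0.45 (0.29 to 0.61). A second STX3 probe set, 216985_s_at, was alike at 0.46 (0.31 to 0.61), and the other, 235483_at, had -0.27 (-0.57 to 0.03). STX2 had a log2 difference of 0.31 (0.25 to 0.37) and STX4 one of -0.02 (-0.07 to 0.04) in the brightest probe set. Over the alternatives, some of which took other probe sets, STX4 ran between -0.48 and 0.32 and was not called. STX1A, the neuronal syntaxin, was above the floor on 1 array alone.

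None of the 7 VAMP genes was called, and in all 7 each comparison stayed within 1.5-fold. VAMP8, the vesicle SNARE of regulated secretion in many blood cells, had 7771 and 7710.4 on U937-AE arrays against 10411 and 10016 on U937-Mt arrays, a log2 difference of -0.40 (-0.43 to -0.37). The lines did not overlap, at a size below the threshold. VAMP4 had the same difference of -0.40 (-0.45 to -0.35), with 581 and 558 on U937-AE arrays against 761 and 740.0 on U937-Mt arrays. VAMP7, a SNARE of lysosomes, had -0.03 (-0.07 to 0.01), and VAMP3, a SNARE of recycling endosomes, had 0.17 (0.08 to 0.25). VAMP5 was below the floor on both U937-Mt arrays and on 1 U937-AE array.

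SNAP23, the SNAP-25 relative that most blood cells use for secretion, was bright in both lines, with 10401 and 10247 on U937-AE arrays against 9304 and 9619 on U937-Mt arrays, a log2 difference of 0.13 (0.09 to 0.16). SNAP29 had overlapping arrays in its brightest probe set, at -0.06 (-0.40 to 0.28), while 239084_at had 412 and 386 on U937-AE arrays against 602 and 663 on U937-Mt arrays, a log2 difference of -0.66 (-0.78 to -0.55) with 3 of 4 comparisons past 1.5-fold. SNAP25, the neuronal form, had -0.07 (-0.17 to 0.04). NSF had 4233.3 and 4233.2 on U937-AE arrays against 4455.5 and 4288 on U937-Mt arrays, a log2 difference of -0.05 (-0.07 to -0.02). Its adaptors NAPA and NAPG, alpha-SNAP and gamma-SNAP, had 0.17 (0.06 to 0.28) and -0.06 (-0.21 to 0.10). The machinery that recycles SNARE bundles thus stayed within 1.5-fold in all comparisons of its brightest probe sets. Over the alternatives NAPG ran between -0.53 and 0.29 and was not called.

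The 8 AP-3 and BLOC subunits were not called either. AP3B1, whose loss causes a form of Hermansky-Pudlak syndrome with neutropenia, had 2069 and 1912.5 on U937-AE arrays against 2089.7 and 1775 on U937-Mt arrays, a log2 difference of 0.05 (-0.13 to 0.22), and AP3D1 had 0.08 (0.00 to 0.15). DTNBP1, the gene of the BLOC subunit dysbindin, had 2469.9 and 2401 on U937-AE arrays against 1818 and 1804 on U937-Mt arrays, a log2 difference of 0.43 (0.40 to 0.45). BLOC1S1, a subunit of the same complex, had -0.35 (-0.42 to -0.27) in the other direction. HPS1, HPS3, HPS4 and HPS5, named for Hermansky-Pudlak syndrome, had differences between -0.23 and 0.18. The 5 HPS1 probe sets ran between -0.86 and 0.35, the lowest of them, 239382_at, with both U937-AE arrays below the floor at 76.3 and 32.0, against 306 and 167 on U937-Mt arrays.

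Probe sets of 1 gene were compared because a probe set reads a short stretch of a transcript. Of the 144 probe sets, 115 were measured. The lower ones numbered 10, the higher 1 and those not called 104, beside 5.37% lower and 2.66% higher among the 23493 measured probe sets of the array. In 34 members several probe sets were measured, of which 16 had all differences of 1 sign and 18 had both signs. Among the 9 called members, 4 had another measured probe set. Only LYST had another that was called.

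**Figure D3:**
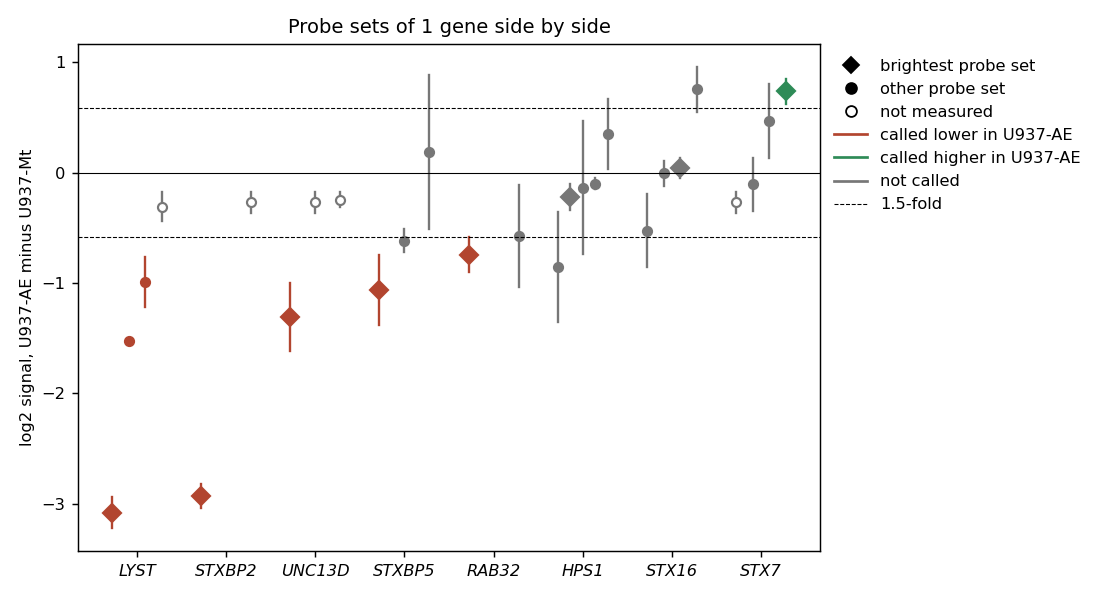
log2 difference of every probe set, U937-AE minus U937-Mt, of the members with several probe sets of which 1 was called or whose measured probe sets lay over 1 log2 unit apart; diamonds mark the brightest probe set, lines span the 4 comparisons, open symbols were not measured and dashed lines stand at 1.5-fold. LYST has 3 lower probe sets, while HPS1, STX16, STX7 and STXBP5 have probe sets on both sides of 0.

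Promoter sequences are shown for 5 called members, because AML1/ETO keeps the DNA binding domain of AML1. The RefSeq table (GRCh38.p14) gives 300 bases a start, 250 before it and 50 from it on, and 45 of the 56 members matched, without UNC13D and RAB37. The AML1 core was searched as TGTGGT and TGCGGT on both strands, which read ACCACA and ACCGCA from the other strand. Capitals mark the core. LYST and STXBP5 hold it 110 and 141 bases before a start, STX7 18 bases after one, and the STXBP2 and NKG7 windows shown hold none.
LYST, chr1:235883664-235883963, minus strand: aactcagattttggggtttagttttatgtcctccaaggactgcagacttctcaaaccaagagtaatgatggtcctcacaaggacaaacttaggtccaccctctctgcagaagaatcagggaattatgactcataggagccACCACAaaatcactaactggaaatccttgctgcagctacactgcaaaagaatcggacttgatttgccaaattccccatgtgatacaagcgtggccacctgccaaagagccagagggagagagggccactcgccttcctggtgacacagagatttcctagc
STXBP5, chr6:147204167-147204466, plus strand: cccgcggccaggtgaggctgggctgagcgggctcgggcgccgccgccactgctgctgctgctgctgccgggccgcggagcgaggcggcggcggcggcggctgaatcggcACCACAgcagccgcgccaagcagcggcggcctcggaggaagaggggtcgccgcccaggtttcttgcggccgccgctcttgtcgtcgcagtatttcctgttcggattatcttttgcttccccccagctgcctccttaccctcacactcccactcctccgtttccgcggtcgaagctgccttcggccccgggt
STX7, chr6:132512734-132513033, minus strand: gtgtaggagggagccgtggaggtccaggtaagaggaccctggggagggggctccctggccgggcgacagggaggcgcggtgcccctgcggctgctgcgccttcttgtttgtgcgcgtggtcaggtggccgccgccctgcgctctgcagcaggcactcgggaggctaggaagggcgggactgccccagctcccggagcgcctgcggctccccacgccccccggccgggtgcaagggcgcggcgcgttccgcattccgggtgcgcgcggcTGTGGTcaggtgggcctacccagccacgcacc
STXBP2, chr19:7629543-7629842, plus strand: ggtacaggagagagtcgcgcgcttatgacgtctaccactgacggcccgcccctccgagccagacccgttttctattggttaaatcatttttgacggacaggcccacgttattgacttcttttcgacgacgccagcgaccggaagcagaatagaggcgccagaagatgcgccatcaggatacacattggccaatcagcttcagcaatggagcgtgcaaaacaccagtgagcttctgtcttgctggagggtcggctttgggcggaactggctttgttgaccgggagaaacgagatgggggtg
NKG7, chr19:51372605-51372904, minus strand: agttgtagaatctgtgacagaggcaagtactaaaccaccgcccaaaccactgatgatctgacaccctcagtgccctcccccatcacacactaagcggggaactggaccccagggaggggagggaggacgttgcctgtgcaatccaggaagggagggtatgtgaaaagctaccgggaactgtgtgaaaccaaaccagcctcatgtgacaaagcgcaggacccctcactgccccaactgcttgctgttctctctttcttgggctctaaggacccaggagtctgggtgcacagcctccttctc

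LYST has 3 such windows, of which the 2 upstream ones overlap and share the core, and STX7 has 3, of which 1 holds it. Of the 6 matched lower members, 2 held the core in a window (LYST and STXBP5) and 4 did not (NKG7, RAB32, STXBP2 and SYTL1), and of the 38 matched members that were not called, 14 held it. In all 17 of the 45 matched members held it in any window (37.8%), against 22.9% of the 27305 genes of the table. Over the members' 69 windows 30.4% held the core, against 19.6% of the 35116 windows of the table. The shares by gene depend on how many windows a gene has, which was not matched. Where windows overlap, as in LYST and HPS4, 1 core counts in each. A match is a string of letters, and binding was not measured in these data. Which start U937 cells use was not tested.

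Other genes of secretion gave the surroundings, in lists also chosen with earlier results of these data known. Of 113 genes in 9 lists of other SNAREs, tethers, RABs, their effectors, calcium sensors and cytotoxic granule contents, 85 were measured. Of these 4 were lower (4.71%, against 6.12% of all measured genes), 2 were higher (2.35%, against 2.6%) and 79 were not called. Their median log2 difference was -0.03. The lower ones numbered 10 or 7 when the first or the second array of U937-Mt was dropped and 9 without a floor, and the higher ones 6 with spike-in scaling. With all arrays and the scaling of the authors, no gene was called among 12 measured other SNAREs, 5 other Sec1/Munc18 and tomosyn genes, 8 HOPS and CORVET subunits, 9 exocyst subunits and 6 synaptotagmins, complexins and calcium sensors. At the shares over all genes, few calls would fall in lists of these sizes. WDFY4, another BEACH gene, had 474 and 445 on U937-AE arrays against 1347 and 1003 on U937-Mt arrays, 2.53-fold lower (2.12 to 3.03). RAB3D, a RAB of secretory granules, was 2.18-fold lower (2.04 to 2.33), with 558 and 503 on U937-AE arrays against 1138 and 1172 on U937-Mt arrays. RAB20, a RAB of phagosomes, was 1.69-fold lower (1.57 to 1.83), and TNFSF10, the gene of the death ligand TRAIL, was 2.18-fold lower (1.90 to 2.51).

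SYTL2 and RAB8B were the companion genes that were higher. SYTL2 codes for Slp2, a RAB27 effector related to Slp1, and had 578 and 479 on U937-AE arrays against 312 and 277 on U937-Mt arrays, 1.79-fold higher (1.53 to 2.09). Within the synaptotagmin-like family SYTL1 was thus lower and SYTL2 higher under the scaling of the authors. RAB8B had 8292.5 and 9008 on U937-AE arrays against 5252.5 and 5322 on U937-Mt arrays, 1.63-fold higher (1.56 to 1.71).

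The called members differed in how far they held under other processing. LYST, STXBP2, NKG7 and RAB37 were called in 18 of 19 alternatives, all but the methods' t-test after Benjamini-Hochberg adjustment, which called no gene of the array. STX7 was called in 15, SYTL1 and UNC13D in 14, and STXBP5 and RAB32 in 12. With a floor at the 75th percentile, UNC13D and STXBP5 were not called. Of the 47 other members, 42 were called under no alternative, and STX3, STX12, RAB38, EXPH5 and DTNBP1 under at least 1.

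**Figure D4:**
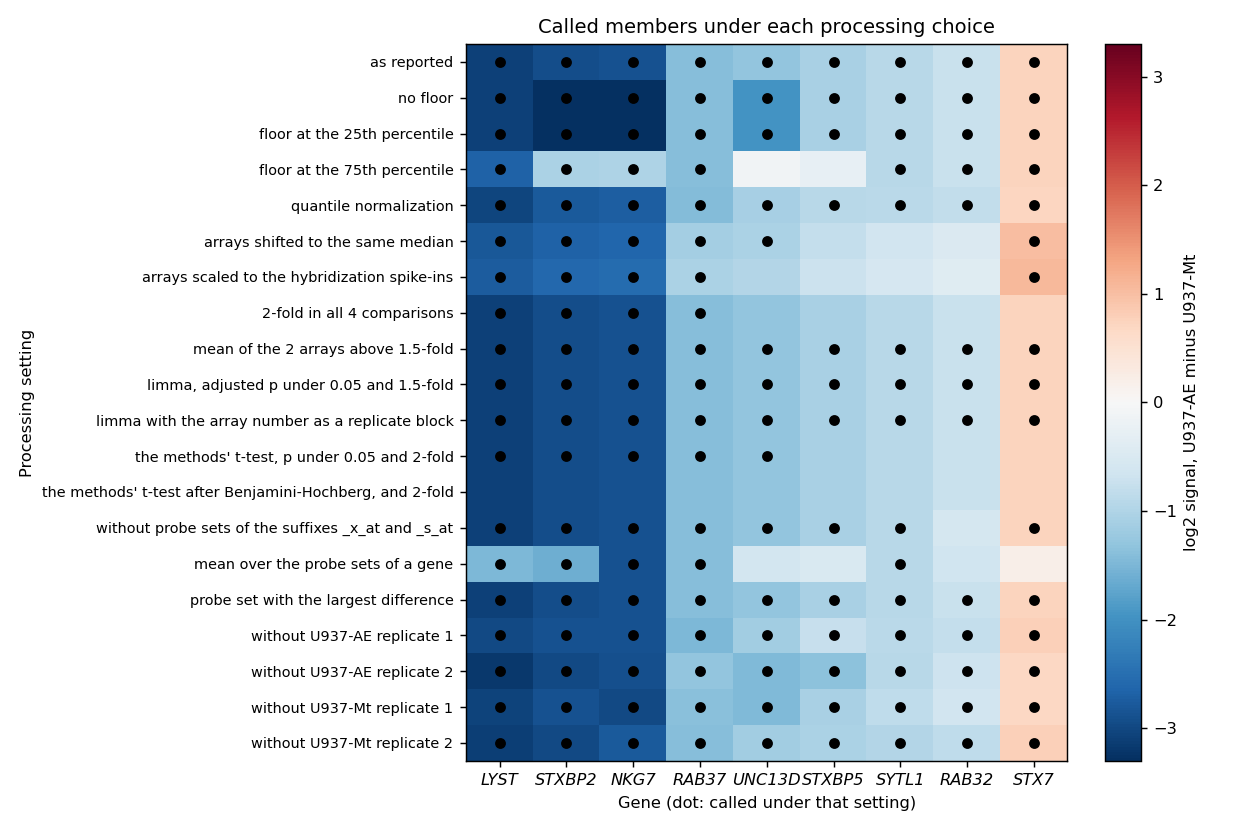
log2 difference, U937-AE minus U937-Mt, of the 9 called members (columns) under each processing setting (rows) as colour, with a dot where the gene was called. The columns of LYST, STXBP2, NKG7 and RAB37 hold a dot in every row but that of the methods' t-test after Benjamini-Hochberg adjustment.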

How the data were processed

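Per the labels and the methods, each RNA pool was hybridized to 2 copies of the HG-U133 Plus 2.0 array. The labels give TRIzol and then RNeasy for the extraction and the methods RNeasy alone. The authors deposited linear signal intensities, 1 for each probe set of an array, made with GCOS (version not given in the sources used here) at default settings, with background correction and scaling of each array, so that the mean trimmed by 2% at each end is 500.1 on every array. Detection calls were not used here. Array number limits the precision.

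Symbols came from the platform annotation, updated through gene identifiers. Probe sets with several symbols named no gene. Values were floored, put on the log2 scale and called as the report describes. The members and lists were chosen with earlier results of these data known. Named genes were the called members, members whose probe sets disagreed or passed 1.5-fold in 3 of 4 comparisons, up to 3 called genes of each list, and RUNX1T1. Any other gene given with values was picked with its values in view. The call rule was tested on simulated data. Python 3.11.15 (numpy 2.4.6, scipy 1.17.1, pandas 2.3.3, matplotlib 3.10.9) and R 4.3.3 (limma 3.58.1) were used. Alternatives changed the floor, the scaling, the call rule or the probe set taken, or left out an array.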

Additional observations from a re-analysis of the deposited data

How the results depend on the processing

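No called member changed direction under any of the 19 alternatives. Against 8 members lower and 1 higher, and 10 of their probe sets lower and 1 higher, the counts were 4 and 3 (probe sets 5 and 5) with arrays scaled to the spike-ins, 5 and 1 (6 and 2) with arrays shifted to the same median, 4 and 0 (5 and 0) at 2-fold, 5 and 0 (6 and 0) with the methods' t-test and 2-fold, 0 and 0 (0 and 0) with the methods' t-test after Benjamini-Hochberg adjustment, and 5 and 0 with the mean over the probe sets of a gene. Lower and higher probe sets numbered 14 and 3 without a floor, 13 and 3 with one at the 25th percentile, 9 and 2 with quantile normalization, 15 and 2 with the mean of the 2 arrays, and 13 and 2 with limma. Leaving out 1 array gave 8 to 10 members lower and 1 to 2 higher, and 11 to 16 probe sets lower and 1 to 3 higher, with 16 lower without the second U937-Mt array and 2 members higher, STX12 with STX7, without the first. The array numbers do not pair the samples, since the arrays are copies of 1 pool. With the array number as a replicate block in limma, 8 members were lower and 1 higher, and 15 probe sets lower and 2 higher. The log2 difference of RUNX1T1, 3.15 as reported, ran between 1.42 (floor at the 75th percentile) and 7.36 (no floor), and it was not called, at 3.15, by the methods' t-test after Benjamini-Hochberg adjustment. Over all measured genes the lower and higher counts were 791 and 336 as reported, 290 and 1369 with spike-in scaling, 387 and 911 with the same median, 1591 and 536 when the first array of U937-Mt was dropped, and 1763 and 624 with the mean of the 2 arrays. The lower companion genes, 4 as reported, ran between 0 and 10 over the alternatives, and the higher ones, 2 as reported, between 0 and 6. The cause of these shifts was not tested, and p-values of limma and of the t-test cover the spread between copies only. Members near or below the floor on U937-AE arrays (STXBP2, NKG7, UNC13D, STXBP5, EXPH5, STX11) are limited by their signal over background. Over the alternatives the log2 difference ran between -4.13 and -1.04 for STXBP2 and between -4.09 and -1.03 for NKG7.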
